A study of Mus musculus with 6 samples.

Results

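The genes described here encode teneurins, latrophilins and FLRT proteins, cell-surface proteins that bind one another across the gap between neighbouring cells. The set holds 10 genes, Tenm1 to Tenm4, Adgrl1 to Adgrl3 and Flrt1 to Flrt3, out of 22180 genes that carried a symbol of their own on the arrays. They were found by symbol and are covered by 14 of the 41345 probe sets. The set was chosen by the log2 difference of Tenm4 between the genotypes on these same arrays, so the Tenm4 difference is given as a description without a test. The other 9 genes entered through family membership, and their tests are reported.

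Sel1L-deficient islets came from mice whose floxed Sel1L alleles (Sel1L f/f) were crossed to Ins1Cre, a line in which Cre recombinase sits at the Ins1 insulin gene and so acts in β cells. Wildtype islets came from control littermates that were Sel1L f/f as well. Both groups were on C57BL/6J, aged 5 weeks and given as female, and each is represented by 3 arrays. No array held Ins1Cre islets with intact Sel1L, so effects of Cre and of the loss of Sel1L cannot be told apart, and the labels do not say how many animals an array pooled. SEL1L holds together the HRD1 machinery that tags misfolded proteins of the endoplasmic reticulum for destruction, and the series asks what its loss does to β-cell identity.

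Teneurins are large single-pass proteins that pair up in the membrane and reach out to latrophilins on the facing cell. Latrophilins are adhesion G protein-coupled receptors, named after the black widow toxin α-latrotoxin that binds them and triggers secretion. FLRT proteins are leucine-rich repeat ligands that bind latrophilins beside teneurins and also bind UNC5 guidance receptors. The families are best known from nerve cells, where they guide axons and help to choose synaptic partners, and Tenm4 is needed for the maturation of myelinating cells in mice. An older name of Tenm4, Doc4, stands for downstream of CHOP, since it was first isolated in mouse cells as a stress gene under that transcription factor.

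Values are log2 RMA summaries of fluorescence as deposited, so a difference of 1 is a 2-fold ratio, and levels of different genes cannot be compared. The array medians lay at 3.08 to 3.16. As a mark of dimness, the 95th percentile of 1108 probe sets for odorant receptors, which islets scarcely use, lay at 2.52 to 2.68. The targeted gene followed the labels: Sel1l read 7.73, 7.65 and 7.68 on the Sel1L-deficient arrays, against 8.46, 8.56 and 8.76 on the wildtype arrays (fell by 0.90 on the log2 scale, limma adjusted p = 0.0312). Replicate 3 of each genotype went against the label female, with the X-inactivation RNA Xist at 2.93 to 3.08, against 9.93 to 10.4 on the other 4 arrays, and 3 Y-linked genes at 5.39 to 7.31, against 1.20 to 2.07. These 2 arrays also read highest for the acinar enzyme gene Cpa1, at 10.1 in Sel1L-deficient and 10.4 in wildtype, above each of the other 4 arrays. The differences of the 10 genes are therefore also given without them. Over all genes, limma called 54 of 22180 genes, or 0.243%, at an adjusted p under 0.05, with 20 (0.0902%) higher and 34 (0.153%) lower in Sel1L-deficient islets.

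Tenm4 was higher in Sel1L-deficient islets. Its brighter probe set read 6.83, 6.85 and 6.53 on the Sel1L-deficient arrays, against 5.11, 5.06 and 5.18 on the wildtype arrays. The lowest Sel1L-deficient value lay well above the highest wildtype value, and all 6 lay above the array medians. The means were 6.74 ± 0.18 in Sel1L-deficient and 5.12 ± 0.06 in wildtype islets (SD, n = 3 each), a log2 difference of 1.62 ± 0.12 (SE) or 3.07-fold. Replicate 3 was the lowest of the Sel1L-deficient arrays, and without replicate 3 of both genotypes the difference was 1.75. In whole islets, more Tenm4 RNA per cell and more cells that make it cannot be told apart.

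The dimmer Tenm4 probe set pointed the same way. It read 2.96, 3.16 and 2.74 on the Sel1L-deficient arrays, against 2.14, 2.27 and 2.48 on the wildtype arrays. The groups did not overlap here either, but only 1 of the 6 values exceeded the median of its array, and the 3 wildtype values lay below the odorant-receptor mark. The measured difference was 0.65, and 0.85 without replicate 3 of both genotypes. With wildtype at background level these differences may understate the change and are not ranked against that of the brighter set. Which exons either set reads was not analysed here, and averaging both sets gave 1.14.

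The promoter windows of Tenm4 are shown because it is the gene on which the set turns and because of its link to CHOP. The windows run from 250 bases before to 50 bases after each annotated start, 5′ to 3′ on the plus strand of chromosome 7 (RefSeq, GRCm38.p6), at chr7:96170994-96171293 and chr7:96211421-96211720. Capitals mark TGCAAT, a short element read by CHOP and C/EBP factors, and CAGAC, the SMAD box, on either strand.
Tenm4 upstream start: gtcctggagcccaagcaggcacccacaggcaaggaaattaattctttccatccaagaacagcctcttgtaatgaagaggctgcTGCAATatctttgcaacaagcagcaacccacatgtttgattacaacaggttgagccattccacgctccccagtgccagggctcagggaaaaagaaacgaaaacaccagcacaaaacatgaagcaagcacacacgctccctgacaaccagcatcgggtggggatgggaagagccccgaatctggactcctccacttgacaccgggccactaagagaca
Tenm4 downstream start: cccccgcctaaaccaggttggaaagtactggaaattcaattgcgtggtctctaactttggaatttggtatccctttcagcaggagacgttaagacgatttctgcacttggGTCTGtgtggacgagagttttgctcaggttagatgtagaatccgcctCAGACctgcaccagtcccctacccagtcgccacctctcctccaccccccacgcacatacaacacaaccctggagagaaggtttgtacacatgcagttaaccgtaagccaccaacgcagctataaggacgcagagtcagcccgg
The upstream window held 1 copy of TGCAAT, at position 84 of the window on the plus strand, and no CAGAC. The downstream window held CAGAC at positions 111 and 158, once on each strand, and no TGCAAT. Neither held TGATGNAA, the composite element read by ATF4 with C/EBP partners, which can overlap TGCAAT. Of 32851 promoter windows of this length, 8.4% held TGCAAT, 49.6% held CAGAC and 3.97% held TGATGNAA. Among the 12 windows of 9 of the genes, some of which overlap, 2 held TGCAAT, 5 held CAGAC and 1, that of Tenm1, held TGATGNAA. A match of letters is not a binding site.

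**Figure D1:**
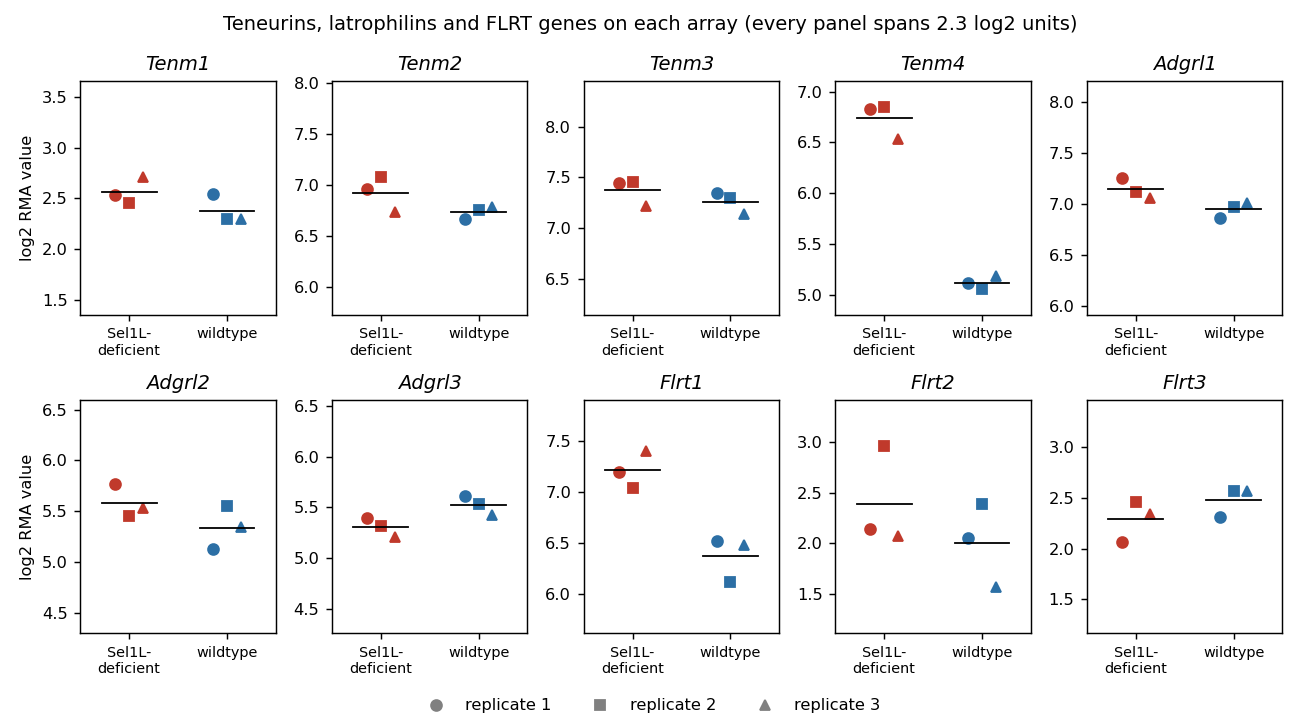
Log2 RMA values of the 10 genes on each array, by the brightest probe set of each gene; red, Sel1L-deficient, and blue, wildtype, with a marker shape for each replicate and a black bar at the mean of 3 arrays. Every panel spans the same number of log2 units. Tenm4 and Flrt1 show the widest gaps, with Sel1L-deficient arrays at 6.53 to 6.85 and 7.04 to 7.41, against wildtype arrays at 5.06 to 5.18 and 6.11 to 6.52.

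None of the other 3 teneurins passed the threshold in limma. Tenm2, whose protein is a high-affinity ligand of latrophilin-1, read 6.96, 7.08 and 6.74 in Sel1L-deficient islets, against 6.66, 6.75 and 6.79 in wildtype islets. Sel1L-deficient replicate 3 lay inside the wildtype range, and the difference of 0.19 had a 95% interval of -0.08 to 0.46 (limma adjusted p = 0.697). Without replicate 3 of both genotypes it was 0.31 (adjusted p = 0.62). Tenm3, which wires circuits of the retina and hippocampus in mice, read 7.45, 7.46 and 7.22 in Sel1L-deficient islets, against 7.35, 7.30 and 7.14 in wildtype islets. Its groups overlapped, and the difference was 0.11 (95% interval -0.15 to 0.38, limma adjusted p = 0.826). Without replicate 3 of both genotypes it was 0.13 (adjusted p = 0.852), and both genes lay above the array medians on all 6 arrays.

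Tenm1, the X-linked teneurin, could not be separated from background. Its brightest probe set read 2.53, 2.45 and 2.71 in Sel1L-deficient islets, against 2.54, 2.30 and 2.30 in wildtype islets. These values straddled the odorant-receptor mark and lay below every array median. The difference was 0.19 (95% interval -0.09 to 0.46, limma adjusted p = 0.705) and 0.08 without replicate 3 of both genotypes. The other 2 probe sets differed by -0.07 and 0.13, with means of 1.53 and 1.57 in Sel1L-deficient and 1.61 and 1.44 in wildtype islets.

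Among the latrophilins, Adgrl1 and Adgrl3 did not overlap between genotypes, in opposite directions and by small amounts. Such a separation was found for 15.1% of all genes, 7.22% higher and 7.84% lower in Sel1L-deficient islets. Adgrl1, which encodes latrophilin-1, the main receptor of α-latrotoxin, read 7.26, 7.12 and 7.06 in Sel1L-deficient islets, against 6.86, 6.97 and 7.01 in wildtype islets. The gap between the nearest arrays was small, and the difference of 0.20 had an interval of -0.04 to 0.44 (limma adjusted p = 0.626). Adgrl3, which encodes latrophilin-3, a receptor at excitatory synapses in mice, read 5.40, 5.32 and 5.21 in Sel1L-deficient islets, against 5.61, 5.54 and 5.43 in wildtype islets. All 3 Sel1L-deficient values were the lower ones, by a difference of -0.22 (95% interval -0.46 to 0.03, limma adjusted p = 0.584). The dimmer Adgrl3 probe set differed by -0.12, with overlapping groups and no array above its median.

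Adgrl2, which encodes latrophilin-2, read 5.77, 5.45 and 5.53 in Sel1L-deficient islets, against 5.13, 5.55 and 5.34 in wildtype islets. Wildtype replicate 2 lay above the lowest pair of Sel1L-deficient values, so the groups overlapped. The difference was 0.24 (95% interval -0.08 to 0.57, limma adjusted p = 0.67). Without replicate 3 of both genotypes the latrophilin differences were 0.27 for Adgrl1, 0.27 for Adgrl2 and -0.22 for Adgrl3, with limma adjusted p = 0.667, 0.786 and 0.73.

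Flrt1 had the second widest gap of the 10 genes and missed the threshold. FLRT1 is the member of its family that FGF receptor signalling is known to phosphorylate. The gene read 7.20, 7.04 and 7.41 on the Sel1L-deficient arrays, against 6.52, 6.11 and 6.48 on the wildtype arrays. Every Sel1L-deficient value exceeded every wildtype value, and all 6 lay far above the odorant-receptor mark. The means were 7.21 ± 0.19 in Sel1L-deficient and 6.37 ± 0.22 in wildtype islets (SD, n = 3 each), a difference of 0.84 ± 0.15 (SE) or 1.79-fold. The 95% interval was 0.50 to 1.18 (limma adjusted p = 0.11). Leaving out 1 array at a time gave 0.71 to 0.93, and leaving out replicate 3 of both genotypes gave 0.80 (adjusted p = 0.352). With a prior spread that follows the level of the gene (limma trend) the adjusted p was 0.0325, so the call depends on how the spread is modelled.

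Flrt2 and Flrt3, which steer migrating neurons in the mouse cortex, were near background. Flrt2 read 2.14, 2.96 and 2.08 in Sel1L-deficient islets, against 2.06, 2.39 and 1.57 in wildtype islets. Sel1L-deficient replicate 2 stood apart from the rest, and the difference of 0.39 (95% interval -0.24 to 1.01, limma adjusted p = 0.736) was 0.10 without that array and 0.33 without replicate 3 of both genotypes. Flrt3 read 2.06, 2.46 and 2.34 in Sel1L-deficient islets, against 2.31, 2.57 and 2.56 in wildtype islets. Its groups overlapped, with a difference of -0.19 (95% interval -0.51 to 0.12, limma adjusted p = 0.733) and -0.18 without replicate 3 of both genotypes. Neither gene exceeded the array median on any array.

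**Figure D2:**
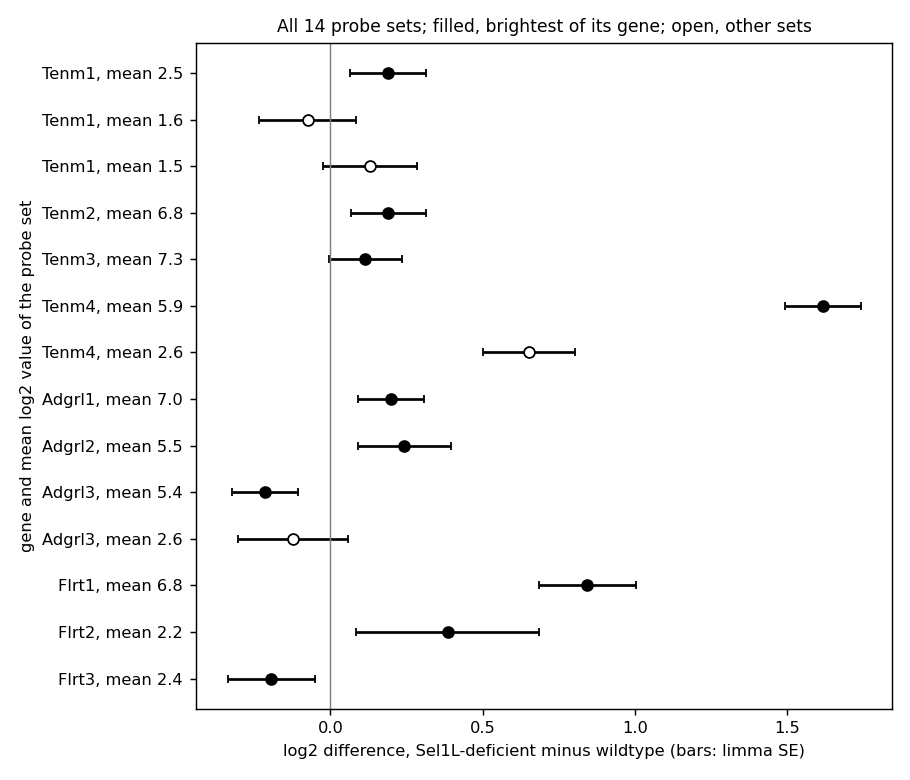
Log2 difference, Sel1L-deficient minus wildtype, for each of the 14 probe sets, with standard errors from limma fitted over all 41345 probe sets; the mean level of a probe set stands beside its gene. Filled points are the brightest set of a gene and open points are other sets. The Tenm4 sets at 1.62 and 0.65 and the Flrt1 set at 0.84 lie farthest from 0.

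Without Tenm4, whose direction was fixed by the choice of the set, 7 of the other 9 genes were higher and 2 lower in mean in Sel1L-deficient islets, where 50.1% of all genes were higher. The median difference over the 9 was 0.19, beside 0.00044 over all genes. Tenm1, Flrt2 and Flrt3 are among the 9 and lay below the array medians on every array, so their directions rest on values near background. Of the 9 genes tested, 0 rose and 0 fell at the threshold in limma, against 0.243% of all genes called. An unadjusted p under 0.05 was found for 1 of them, Flrt1, and for 9.48% of all genes. With limma trend 1 of the 9 passed. Groups did not overlap for 3 of these 9 genes, Flrt1 and Adgrl1 on the higher side and Adgrl3 on the lower, and for 15.1% of all genes (7.22% higher, 7.84% lower). Over all 41345 probe sets the groups did not overlap for 13.3%, and a fit of all of them called 0.00726% and none of the 9 genes. All 9 differences kept their sign under every alternative that gave a value.

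**Figure D3:**
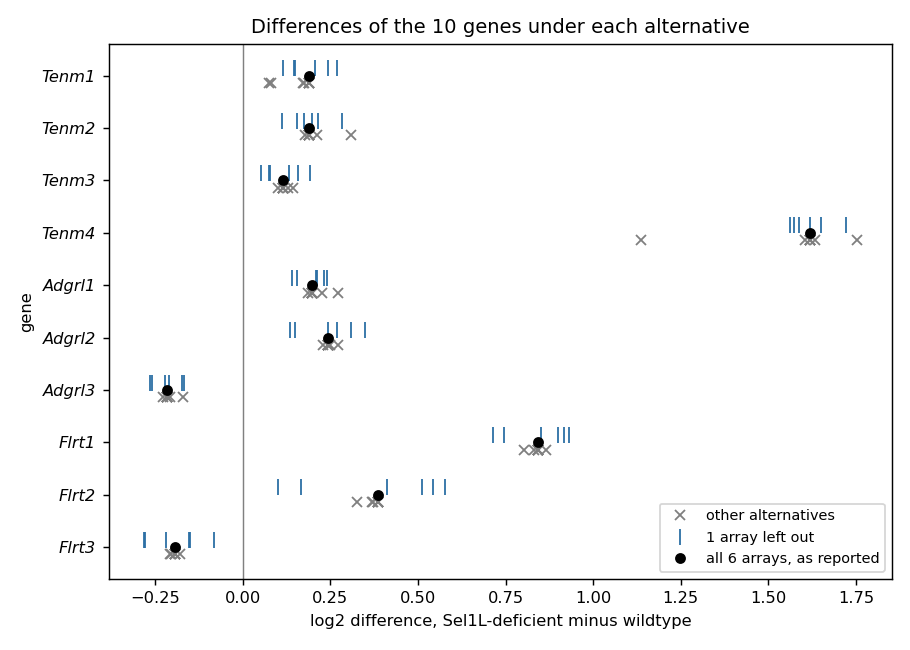
Log2 differences, Sel1L-deficient minus wildtype, of the 10 genes with all 6 arrays (black points), with 1 array left out (blue ticks) and under the other alternatives (grey crosses). Tenm4 lies between 1.56 and 1.72 with 1 array left out, and its lowest cross, 1.14, is the mean of both probe sets; Flrt1 lies between 0.71 and 0.93.

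The genes whose profiles over the 6 arrays came nearest to Tenm4 were Trim66, Cd44, Neurog3, Bmp3 and Pigr. Likeness was the root mean square difference between log2 values after each gene was centred on its own mean, and it was 0.19 for Trim66, 0.22 for Cd44, 0.26 for each of Neurog3, Bmp3 and Pigr. Trim66, a TIF1-family corepressor, averaged 4.61 in Sel1L-deficient and 3.18 in wildtype islets, and Cd44, a hyaluronan receptor, 7.76 in Sel1L-deficient and 6.52 in wildtype islets. The means were 6.89 in Sel1L-deficient and 5.76 in wildtype islets for Neurog3, the transcription factor of embryonic endocrine progenitors. Bmp3, a secreted ligand of the BMP family, averaged 6.12 in Sel1L-deficient and 4.85 in wildtype islets, and Pigr, the receptor that carries IgA across epithelia, averaged 6.90 in Sel1L-deficient and 5.46 in wildtype islets. All 5 were thus higher in Sel1L-deficient islets, as the measure requires. Flrt1 came 38th among the other genes at 0.45, and each of the other 8 genes of the set lay at 0.71 or more. The measure depends on the size of a gene's own difference between genotypes, so these ranks largely restate the differences given above. Tenm4 was high on Sel1L-deficient replicates 1 and 2 and lower on replicate 3, while Flrt1 was highest on Sel1L-deficient replicate 3.

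**Figure D4:**
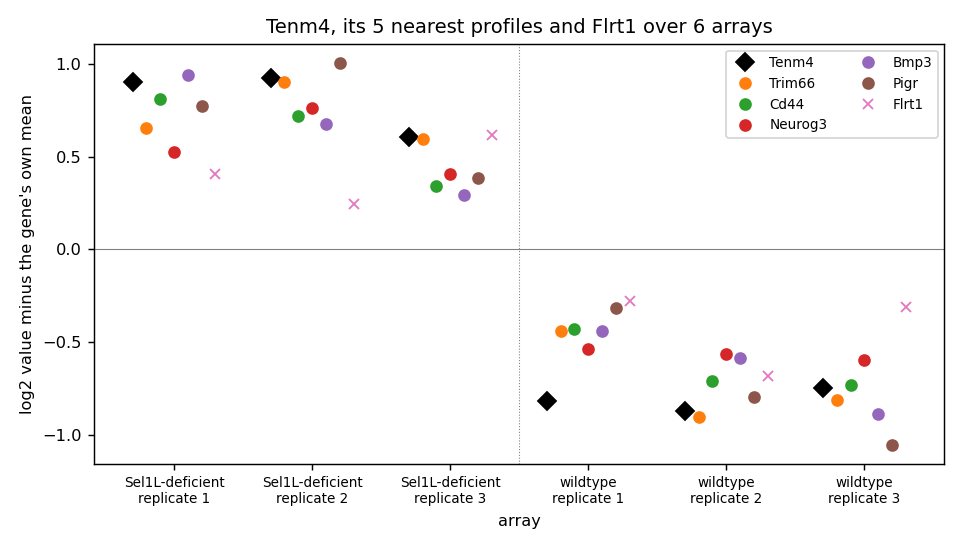
Log2 values of Tenm4 (black diamonds), its 5 nearest genes (circles) and Flrt1 (crosses) on each array, each gene centred on its own mean over 6 arrays; Sel1L-deficient arrays are left of the dotted line and wildtype arrays right of it. All 7 genes lie above 0 on the 3 Sel1L-deficient arrays and below 0 on the 3 wildtype arrays.

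No further binding partner of the 3 families passed the threshold. Of 20 genes listed, among them UNC5 and ROBO guidance receptors, neurexins, dystroglycan and FGF receptors, 18 were measured, 0 rose and 0 fell in limma, against 0.243% of all genes called. Of the 18, 5 had an unadjusted p under 0.05, against 9.48% of all genes, and 5 did not overlap between genotypes, 1 higher and 4 lower, against 15.1% of all genes. The median was -0.01, over differences of both signs. Robo1, a SLIT receptor whose protein also binds FLRT3, read 7.27, 7.13 and 7.44 in Sel1L-deficient islets, against 8.07, 7.70 and 7.91 in wildtype islets. All Sel1L-deficient values were the lower ones, by -0.61 ± 0.13 (SE, limma adjusted p = 0.192), the opposite side from Flrt1. Robo2, its close relative, differed by -0.32 (adjusted p = 0.387) without overlap. Unc5b, a netrin receptor that is prominent in vessels and binds FLRTs, read 5.46, 5.50 and 4.58 in Sel1L-deficient islets, against 4.39, 4.72 and 4.11 in wildtype islets. Its groups overlapped at Sel1L-deficient replicate 3, and the difference was 0.77 (limma adjusted p = 0.387).

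Among 38 measured genes of other trans-synaptic adhesion families, 1 rose and 0 fell, against 0.243% of all genes called, with a median of -0.00387. An unadjusted p under 0.05 was found for 10 of the 38, against 9.48% of all genes, and 13 did not overlap between genotypes, 5 higher and 8 lower, against 15.1%. The gene that rose was Ntng1, which encodes the GPI-anchored ligand netrin-G1. Ntng1 read 3.03, 3.06 and 3.48 in Sel1L-deficient islets, against 2.08, 2.20 and 1.90 in wildtype islets. The wildtype values lay below the odorant-receptor mark, so the difference of 1.13 (limma adjusted p = 0.0367) starts from background, and with any 1 array left out the list had 0 calls. Slitrk6, an adhesion protein with leucine-rich repeats that was singled out after its values were seen, read 7.55, 7.27 and 7.64 in Sel1L-deficient islets, against 8.40, 8.21 and 8.34 in wildtype islets. It lay just outside the threshold at -0.83 ± 0.13 (SE, limma adjusted p = 0.0562), and inside it with limma trend (0.00854).

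Other adhesion G protein-coupled receptors had 0 rises and 0 falls in limma among 22 measured, against 0.243% of all genes called, with a median of -0.02. Of the 22, 4 had an unadjusted p under 0.05, against 9.48% of all genes, and 6 did not overlap, 2 higher and 4 lower, against 15.1%. Adgrl4, a relative of the latrophilins found in endothelium, read 7.05, 7.18 and 7.21 in Sel1L-deficient islets, against 6.15, 6.72 and 6.81 in wildtype islets, a difference of 0.59 (limma adjusted p = 0.34). Its groups did not overlap. Adgrv1, the very large receptor of sensory hair cells, differed by -0.75 (adjusted p = 0.252), and Adgrg2 by -0.27 near background (adjusted p = 0.465).

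Genes of the CHOP and ATF4 axis, to which the name Doc4 points, had 0 of 10 past the threshold in limma, against 0.243% of all genes called. An unadjusted p under 0.05 was found for 0 of the 10, against 9.48% of all genes, and the median was -0.05. Ddit3, which encodes CHOP itself and was named outside the rule for that reason, read 6.35, 6.09 and 6.12 in Sel1L-deficient islets, against 5.82, 5.57 and 6.25 in wildtype islets. Wildtype replicate 3 overlapped the Sel1L-deficient range, and the difference was 0.30 (95% interval -0.10 to 0.70, limma adjusted p = 0.667), or 0.52 without replicate 3 of both genotypes (adjusted p = 0.506). The genes of this list with the largest test statistics were Ero1a, an oxidase of the endoplasmic reticulum, Asns, asparagine synthetase, and Atf4. They differed by -0.28, -0.31 and -0.22 (limma adjusted p = 0.574, 0.637 and 0.65). Without replicate 3 of both genotypes the differences of these genes were -0.18, -0.09 and -0.12. The list averaged 6.80 on wildtype replicate 3, against 6.29 and 6.38 on the other wildtype arrays and 6.35 to 6.45 in Sel1L-deficient islets.

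**Figure D5:**
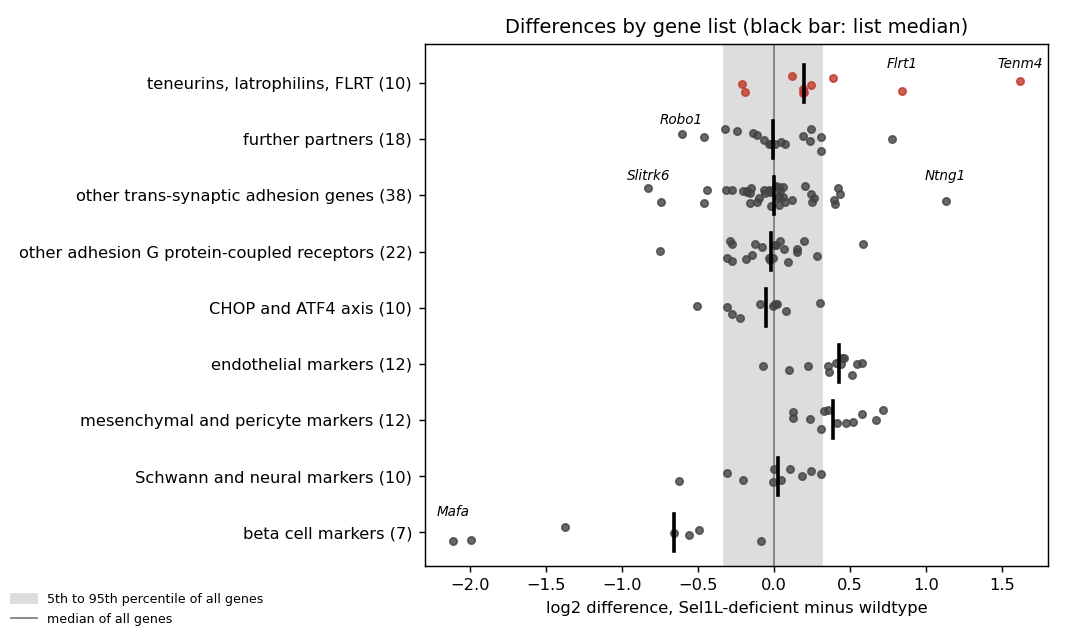
Log2 differences, Sel1L-deficient minus wildtype, of the teneurin, latrophilin and FLRT genes (red) and of related gene and marker lists (grey), with the number of measured genes in brackets and a black bar at each list median; vertical scatter is for visibility only. The grey band spans the 5th to 95th percentile of all genes, -0.33 to 0.32, and Tenm4 and Flrt1 lie to its right at 1.62 and 0.84.

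Levels of cell type markers are given by genotype, and the part of other cells in the Tenm4 and Flrt1 differences was not tested. Of 12 endothelial markers 11 were higher in mean in Sel1L-deficient islets, against 50.1% of all genes, and 0 passed the limma threshold, against 0.243%. An unadjusted p under 0.05 was found for 7 of the 12, against 9.48% of all genes. Groups did not overlap for 6, all higher, against 7.22%. The mean level per array was 6.21 to 6.41 in Sel1L-deficient and 5.78 to 6.16 in wildtype islets. All 12 mesenchymal and pericyte markers were higher in mean and 0 passed, at 4.97 to 5.26 in Sel1L-deficient and 4.36 to 5.01 in wildtype islets. Of these, 3 had an unadjusted p under 0.05, against 9.48% of all genes, and 3 did not overlap, all higher, against 7.22%. The median differences of the endothelial and mesenchymal lists were 0.43 and 0.38. Schwann and neural markers, 5 of 10 of them higher, lay at 4.05 to 4.46 in Sel1L-deficient and 4.15 to 4.29 in wildtype islets. β-cell markers were lower for 7 of 7 genes, at 8.47 to 8.65 in Sel1L-deficient and 9.39 to 9.69 in wildtype islets. Groups did not overlap for all 7, against 7.84% of all genes on the lower side. At the limma threshold 3 fell, against 0.153% of all genes. The calls became 0 without replicate 3 of both genotypes and 1 with all probe sets fitted.

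The remaining lists had 0 calls each in limma, against 0.243% of all genes called, and 50.1% of all genes were higher in mean. Markers of α cells were higher for 5 of 5 genes, at 8.92 to 9.03 in Sel1L-deficient and 8.67 to 8.88 in wildtype islets, and those of δ and PP cells for 4 of 5, at 8.55 to 8.70 in Sel1L-deficient and 8.45 to 8.62 in wildtype islets. Acinar and duct markers were higher for 1 of 8 genes, at 4.02 to 5.28 in Sel1L-deficient and 4.40 to 5.48 in wildtype islets, and leukocyte markers for 3 of 7, at 3.63 to 3.73 in Sel1L-deficient and 3.54 to 3.97 in wildtype islets. RMA values have no zero, and the defining markers below the array medians throughout were Cldn5 of endothelium, Lum of mesenchyme, S100b of Schwann cells, Amy2b and Ptf1a of acini, Cftr of ducts, and Adgre1, Cd3e and Itgam of leukocytes.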

How the data were processed

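RNA of islets picked by hand and left overnight in culture was hybridised to 6 Affymetrix arrays. The authors summarised the probes with RMA, per the submitters' processing notes, and the deposited values were read as log2 from their range, the log base not being given in the sources used here. RMA can compress large ratios, and the table carries no detection call. The number of arrays limits the precision. By the sex-linked transcripts, replicate 3 of each genotype came from other animals than the remaining arrays of that genotype. For those remaining arrays nothing states that they are separate animals. The p-values thus cover only array-to-array spread, part of which may be technical.

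Of 41345 probe sets, 23521 had 1 gene symbol in the platform annotation, 1814 several and 16010 none. Where a gene had several sets, the one brightest on average over 6 arrays was kept, giving 22180 genes without a filter. Sel1L-deficient minus wildtype differences were fitted with limma 3.58.1 in R 4.3.3 (lmFit, eBayes, two-sided, Benjamini-Hochberg adjustment over all genes, threshold 0.05), checked on simulated data. Promoter windows came from RefSeq.

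The genes and all lists were chosen with earlier results of these data known. Named were all 10 genes, Sel1l, of each of 4 lists of related genes the called genes or else the 3 with the largest statistic, and the 5 profiles nearest to Tenm4; any other is marked or is a marker. The labels state no pairing by replicate number, and the main fit treated the arrays as unpaired. Deviations of equal number correlated at 0.10, 0.07 and 0.21. Alternatives covered each array left out, replicate 3 of both genotypes left out or as a covariate, the replicate block, probe set choice, normalization, spread model and a filter on dim genes.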

Additional observations from a re-analysis of the deposited data

How the results depend on the processing

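The 9 tested genes kept their direction under every alternative, and 0 of them passed except with limma trend, where Flrt1 did (1 gene, limma adjusted p = 0.0325); the adjusted p of Flrt1 ran from 0.0325 to 0.363. Tenm1, Flrt2 and Flrt3 gave no value with genes above the array median only. The Tenm4 difference of 1.62 was 1.56 to 1.72 with 1 array left out, 1.75 without replicate 3 of both genotypes and 1.14 as the mean of both probe sets, and that of the dimmer Tenm4 set was 0.55 to 0.76 and 0.85 in the first pair of these. The 54 calls over all genes became 4 to 29 with 1 array left out (4 without Sel1L-deficient replicate 1), 1 without replicate 3 of both genotypes, 98 with limma trend and 3 (0.00726%) when all 41345 probe sets were fitted, an alternative added after seeing the data; fewer arrays or more features enter those fits, and the cause of the rise with trend was not tested. The 1 call among other trans-synaptic genes became 0 with any 1 array left out, without replicate 3 of both genotypes, with the replicate block and with all probe sets, and 2 (Ntng1 and Slitrk6) with arrays centred on their medians or limma trend; with dim genes removed it was Slitrk6 in place of Ntng1. The 3 β-cell markers called became 1 to 3 with 1 array left out, 0 without replicate 3 of both genotypes and 1 with all probe sets.

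With the replicate block Flrt1 stood at 0.84 (limma adjusted p = 0.0611), and the block changed no call among the 9 genes. The labels state no pairing by number, though all 6 arrays correlated best with their own number in the other genotype. Whether arrays of equal number share an origin was not tested. Signal over background limits Tenm1, Flrt2, Flrt3, the dimmer Tenm4 set and Ntng1.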
